A study of Mus musculus with 16 samples.

Results

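The corticosteroid receptors and a set of genes known to respond to glucocorticoids were followed in the mouse dorsal hippocampus at rest and after spatial learning, with and without chronic caffeine. The 10 genes were taken by name from the 35328 genes of the count table: the receptors Nr3c1 and Nr3c2, the enzyme Hsd11b1, and the target genes Fkbp5, Tsc22d3, Sgk1, Zbtb16, Klf9, Cdkn1a and Plin4. Each name matched 1 row, and all 10 genes passed the count filter and were counted in all 16 mice. Male C57Bl6/J mice were 8 to 9 weeks old when they began to drink either plain water or caffeine at 0.3 g/L, for 2 weeks. In each drinking group 4 mice stayed at rest ("home cage") and 4 were trained in the Morris water maze, a pool in which a hidden platform is found from cues in the room, for 3 days with 4 trials a day ("learning"). The paper also describes 2 days of habituation to the pool before this training. The learning mice were killed 1 hour after their last session, and all mice within 2 hours of each other. The home cage mice did not swim in these sessions, so spatial learning and the swimming itself cannot be told apart in any comparison of learning with home cage.

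Corticosterone, the main glucocorticoid of mice, is released from the adrenal gland in a daily rhythm and under stress, and it acts in the brain through a pair of receptors that are also transcription factors. The mineralocorticoid receptor (Nr3c2) binds it with high affinity and is known for its abundance in hippocampal neurons, while the glucocorticoid receptor (Nr3c1) binds it with lower affinity and fills when levels are high. Both receptors move to the nucleus once bound and act at glucocorticoid response elements, paired arms of the letters AGAACA that face each other, near or far from the genes they regulate.

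The promoter sequences are shown for 2 target genes, since Sgk1 and Tsc22d3 were among the members with a changed count after learning and hold matches to these letters. Promoter windows from RefSeq (GRCm38.p6, on the strand of the gene) matched 8 of the 10 genes, with 16 windows in all. The full palindrome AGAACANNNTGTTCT was found on either strand in 3 of 32851 promoter windows (0.00913%), and 1 of these was 1 of the 6 windows of Sgk1, at chr10:21993640-21993939 on the plus strand. Its arm AGAACA was found on either strand in 19.0% of all windows and in 4 of the 16 member windows, 3 of Sgk1 and 1 of Tsc22d3 at chrX:140600473-140600772 on the minus strand. In the sequences below, capitals mark the element with its own pair of arms, and the single arms. Each window has its own transcript start. In the Sgk1 window shown, the element starts 189 bases and the single arm 242 bases before the start of that window's transcript. In the Tsc22d3 window shown, the single arm starts 185 bases before the start of its transcript.
Sgk1: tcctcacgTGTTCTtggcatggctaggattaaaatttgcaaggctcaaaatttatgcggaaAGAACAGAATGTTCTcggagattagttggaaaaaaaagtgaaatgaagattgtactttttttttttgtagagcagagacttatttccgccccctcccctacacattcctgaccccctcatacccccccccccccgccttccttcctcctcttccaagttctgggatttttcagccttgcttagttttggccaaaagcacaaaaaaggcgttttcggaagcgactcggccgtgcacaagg
Tsc22d3: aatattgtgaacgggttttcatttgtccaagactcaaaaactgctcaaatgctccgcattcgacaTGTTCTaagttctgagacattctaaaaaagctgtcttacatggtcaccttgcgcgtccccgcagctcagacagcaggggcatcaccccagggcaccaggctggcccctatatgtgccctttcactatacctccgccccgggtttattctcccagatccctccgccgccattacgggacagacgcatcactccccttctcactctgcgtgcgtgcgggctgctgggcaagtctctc
The cAMP response element TGACGTCA, at which the activity-dependent factor CREB binds, was in 1.79% of all windows and in 0 of the 16 member windows. Its shorter core TGACG was in 20.8% of all windows and in 3 member windows, 1 each of Sgk1, Klf9 and Tsc22d3. These are matches of letters only, and they say nothing of whether a factor was bound in these mice.

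Libraries held 23078094 to 49949281 gene counts per mouse, of which the 10 genes took 0.0676 to 0.0938%. Values are given as CPM, the count scaled to a common library size after TMM adjustment in edgeR. Tests are edgeR quasi-likelihood tests over all 16 mice and 17830 genes, and "called" means an adjusted p (Benjamini-Hochberg) under 0.1. Values of the 4 mice of a group are listed by animal number, which runs 6, 8, 11 and 20 for home cage water, 2, 9, 14 and 17 for home cage caffeine, 24, 33, 36 and 38 for learning water and 22, 27, 30 and 40 for learning caffeine. All 6 markers of hippocampal neurons (Camk2a and Neurod6 among them) were counted in every mouse, with a summed level of 6709 to 8531 CPM. In bulk tissue, fewer cells of a type and less RNA per cell cannot be told apart.

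Per length of exon, the mineralocorticoid receptor was the most abundant of the 10 genes. The length used is that of all annotated exons of a gene merged, which can exceed that of any single transcript. The order of the genes under another length was not tested. Over the 16 mice Nr3c2 stood at 39.6 ± 3.22 CPM per kb (SD, n = 16) and Nr3c1 at 14.2 ± 1.40 CPM per kb (SD, n = 16), and the lowest mouse for Nr3c2 (32.96 CPM per kb) lay above the highest for Nr3c1 (16.6 CPM per kb). Klf9 followed Nr3c2 with 33.5 ± 4.50 CPM per kb and Sgk1 with 19.2 ± 5.44 CPM per kb. Below Nr3c1 came Tsc22d3 with 13.1 ± 3.50 CPM per kb, Hsd11b1 with 10.1 ± 0.838 CPM per kb, Zbtb16 with 7.90 ± 1.81 CPM per kb and Fkbp5 with 7.79 ± 1.10 CPM per kb. The lowest levels per length were those of Cdkn1a (2.37 ± 0.571 CPM per kb) and Plin4 (0.536 ± 0.290 CPM per kb). The SDs of neighbours in this order overlapped except between Klf9 and Sgk1, between Fkbp5 and Cdkn1a and between Cdkn1a and Plin4. Raw counts per mouse were 22 to 234 for Plin4 and 196 to 549 for Cdkn1a, and at least 804 for the other genes, so that counting error weighs most on Plin4.

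**Figure D1:**
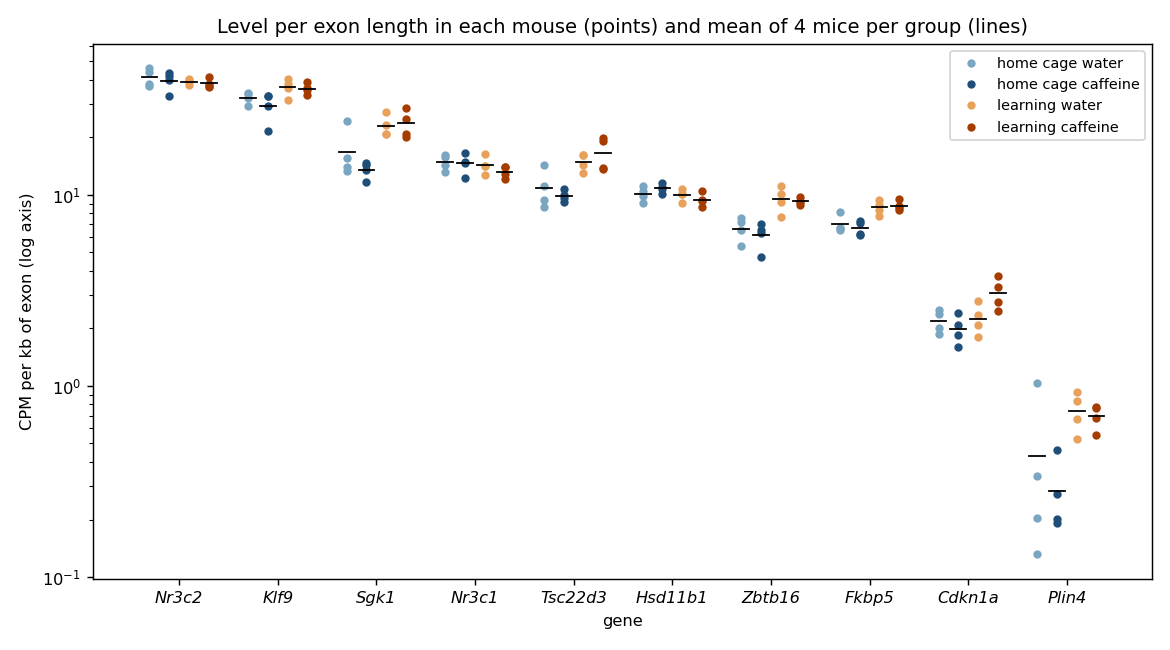
Level of each gene per exon length (CPM per kb, log axis) in each mouse (points, coloured by group), with the mean of the 4 mice of a group as a line. Nr3c2 lies highest and Plin4 lowest, and the 16 points of Nr3c1 all lie below those of Nr3c2.

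The receptors were not called in any comparison. Nr3c1 (ENSMUSG00000024431, on chromosome 18) had 110.4, 124, 121 and 101 CPM in home cage water mice and 97.1, 109, 109 and 125 CPM in learning water mice. Under caffeine it had 114, 113, 127 and 94.5 CPM in the home cage and 93.2, 99.2, 107 and 108 CPM after learning. These groups overlap, and the log2 fold change of learning over home cage was -0.05 with water (95% interval -0.24 to 0.14) and -0.14 with caffeine (95% interval -0.33 to 0.05). Nr3c2 (ENSMUSG00000031618, chromosome 8 from 76899442 to 77245012) had 241, 298, 284 and 248 CPM in home cage water mice and 242, 260.4, 253 and 259 CPM in learning water mice. With caffeine the counts of Nr3c2 were 281, 257, 272 and 213 CPM at rest and 269, 237, 246 and 241 CPM after training. Here too the groups overlap, with log2 fold changes of -0.08 (95% interval -0.24 to 0.09) and -0.04 (95% interval -0.21 to 0.13) for learning over home cage. The lowest count of Nr3c2 came from home cage caffeine mouse 17, which also had the largest mitochondrial fraction of counts (4.49%, against 3.23 to 3.89% in the 12 mice of the other groups). Of the exon length of Nr3c2, 3.82% overlaps a noncoding gene on the opposite strand, and the sources used here do not state whether the counting used the strand.

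Hsd11b1 (ENSMUSG00000016194, chromosome 1 from 193221634 to 193264075) encodes the enzyme that regenerates active corticosterone from its inert 11-keto form inside cells. It had 42.0, 47.4, 38.6 and 44.4 CPM in home cage water mice and 38.4, 43.2, 42.9 and 45.7 CPM in learning water mice, 2 overlapping groups. With caffeine it had 48.8, 46.9, 45.8 and 43.1 CPM in the home cage and 40.1, 39.4, 36.7 and 44.4 CPM after learning, where 3 of the 4 learning mice lay below the lowest home cage mouse. The log2 fold change under caffeine was -0.20 (SE 0.07) and was not called in edgeR (unadjusted p = 0.0129, adjusted p = 0.147).

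After learning, 7 of the 10 genes were called higher in the average over both treatments and 0 lower, and they were the 7 target genes. In that comparison 14.5% of all tested genes were called, 7.81% higher and 6.71% lower. Under caffeine alone 5 of the 10 genes were called, all higher (Sgk1, Tsc22d3, Zbtb16, Cdkn1a and Fkbp5), where 5.28% of all tested genes were called, 3.16% higher and 2.13% lower. With water alone only Zbtb16 was called, where 0.97% of all tested genes were called, 0.639% higher and 0.331% lower. The median log2 fold change of the 10 genes was 0.23 with water and 0.49 with caffeine, and that of all tested genes was -0.01 in each. With caffeine all 4 learning mice lay above all 4 home cage mice in 7 of the 10 genes and in 5.64% of all tested genes, and with water in 1 of the 10 and in 3.87% of all. These 2 comparisons share no mice, and whether the response differed between water and caffeine was tested separately.

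**Figure D2:**
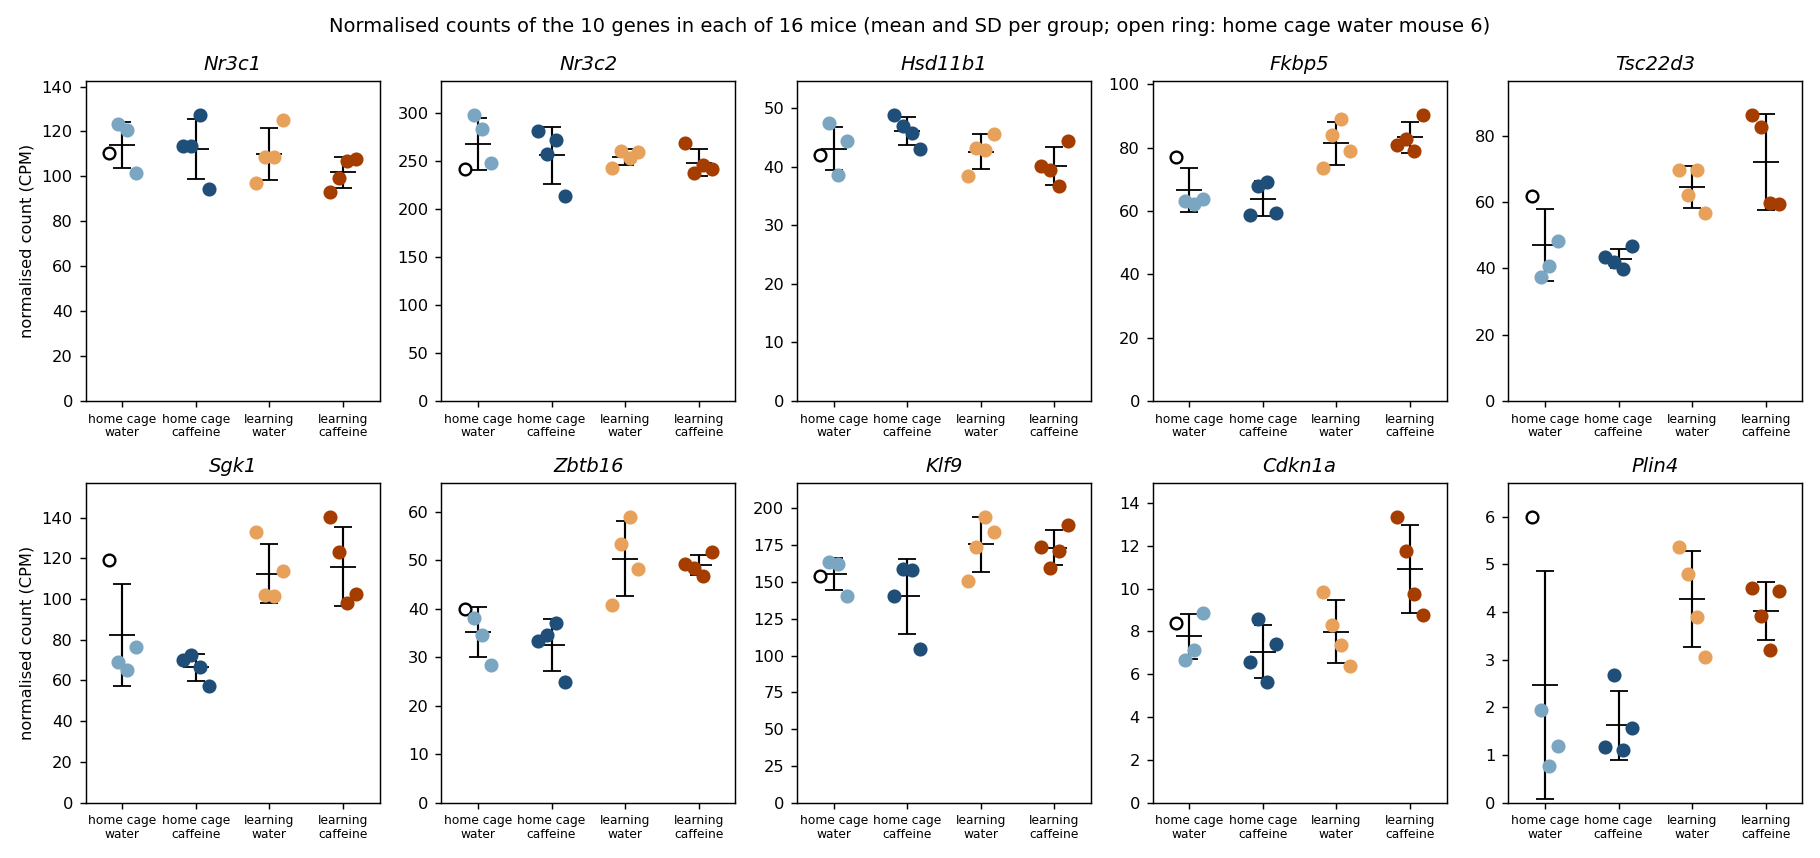
Normalised count (CPM) of each gene in each of the 16 mice, in 4 groups of 4, with the mean and SD of each group in black. For Fkbp5, Tsc22d3, Sgk1, Zbtb16 and Plin4 every learning mouse lies above every home cage mouse other than home cage water mouse 6 (open ring), while Klf9 and Cdkn1a overlap more. Mouse 6 lies among or above the learning mice for Fkbp5, Tsc22d3, Sgk1 and Plin4.

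Fkbp5 (ENSMUSG00000024222, chromosome 17 from 28399094 to 28517527) encodes a cochaperone that binds the unliganded glucocorticoid receptor complex, lowers its affinity for hormone and is induced by the receptor, which closes a short feedback loop. It had 77.1, 63.3, 62.2 and 63.9 CPM in home cage water mice and 73.4, 84.1, 89.1 and 78.9 CPM in learning water mice. All home cage values but that of mouse 6 lay below the lowest learning mouse. Under caffeine it had 58.7, 67.9, 69.3 and 59.4 CPM in the home cage and 81.0, 82.8, 79.0 and 90.2 CPM after learning, with no overlap. Fkbp5 rose under caffeine by a log2 fold change of 0.38 (SE 0.08, adjusted p = 0.0174), and by 0.34 (SE 0.06, adjusted p = 0.00191) in the average of both treatments. With water the value was 0.29 (SE 0.08, adjusted p = 0.129), which did not pass. At rest the means were 66.6 ± 7.04 CPM with water and 63.8 ± 5.54 CPM with caffeine (SD, n = 4), and after training 81.4 ± 6.72 and 83.3 ± 4.89 CPM.

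Tsc22d3 (ENSMUSG00000031431, chromosome X from 140539528 to 140600659), also known as GILZ, encodes a leucine zipper protein through which glucocorticoids restrain inflammatory signalling. It had 61.9, 37.3, 40.7 and 48.3 CPM in home cage water mice and 69.8, 62.2, 69.8 and 56.6 CPM in learning water mice. The single home cage value within the learning range was again that of mouse 6. With caffeine Tsc22d3 had 43.4, 41.9, 39.9 and 46.8 CPM in the home cage and 86.3, 82.9, 59.7 and 59.5 CPM after learning. No value was shared between these groups, and mice 22 and 27 stood well above mice 30 and 40. Tsc22d3 rose by 0.74 (SE 0.14, adjusted p = 0.0121) on the log2 scale under caffeine, 1.68-fold, and by 0.60 (SE 0.10, adjusted p = 0.00197) in the average. The water value of 0.46 (SE 0.14, adjusted p = 0.187) did not pass.

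Sgk1 (ENSMUSG00000019970, chromosome 10 from 21882184 to 21999903) encodes a kinase that is induced by corticosteroids and acts on ion channels and transporters, and its transcript is found in oligodendrocytes as well as neurons. In home cage water mice Sgk1 had 119, 69.0, 65.0 and 76.6 CPM, and in learning water mice 133, 102, 101 and 114 CPM. Mouse 6 exceeded 3 of the 4 learning mice, and the other 3 home cage mice lay below all of them. Under caffeine the counts were 70.0, 72.3, 66.5 and 57.1 CPM in the home cage and 140.3, 123, 98.2 and 102 CPM after learning, and every learning mouse was higher. Sgk1 rose 1.74-fold under caffeine, a log2 fold change of 0.80 (SE 0.16, adjusted p = 0.0147), and by 0.63 (SE 0.11, adjusted p = 0.00285) on the log2 scale in the average. With water it was 0.45 (SE 0.16, adjusted p = 0.251), short of the threshold.

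Within each group Sgk1 was highest in the mouse with the highest summed level of oligodendrocyte markers. The summed level of 8 markers (Mbp and Mog among them, all counted in every mouse) ranged from 5263 to 7546 CPM in home cage water, 5361 to 9106 CPM in home cage caffeine, 5214 to 12133 CPM in learning water and 5051 to 7082 CPM in learning caffeine mice. The mice with the highest sums were mice 6, 9, 24 and 22 in that order. Below the highest mouse the order did not always hold. Learning caffeine mouse 27 and learning water mouse 38 had the lowest sums of their groups but the next highest Sgk1 (123 and 114 CPM). Plin4 was also highest in mice 6, 9, 24 and 22 of their groups (5.99, 2.67, 5.36 and 4.50 CPM). Of the 8 markers 0 were called in edgeR after learning with water or with caffeine (0 and 2 at an unadjusted p under 0.05), with median log2 fold changes of 0.21 (8 of 8 above 0) and -0.38 (0 of 8 above 0), and the part of oligodendrocyte content in the Sgk1 values was not tested. Without learning water mouse 24 the log2 fold change of Sgk1 was 0.37 with water (adjusted p = 0.364, edgeR) and 0.59 in the average of both treatments (adjusted p = 0.00473, edgeR).

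Zbtb16 (ENSMUSG00000066687, chromosome 9 from 48654297 to 48836222), also called PLZF, encodes a zinc finger repressor that is strongly induced by glucocorticoids in many cells. It had 39.9, 38.01, 34.5 and 28.4 CPM in home cage water mice and 40.7, 53.3, 58.9 and 48.2 CPM in learning water mice, and the highest home cage mouse lay just under the lowest learning mouse. With caffeine Zbtb16 had 33.4, 34.6, 37.1 and 24.9 CPM in the home cage and 49.3, 48.4, 46.8 and 51.6 CPM after learning. Of the 10 genes it alone showed no overlap between the 8 home cage and the 8 learning mice, while in 0.953% of all tested genes all 8 learning mice were higher and in 0.365% all 8 were lower. Zbtb16 rose by 0.52 (SE 0.12, adjusted p = 0.0834) with water, by 0.59 (SE 0.12, adjusted p = 0.0186) with caffeine and by 0.55 (SE 0.09, adjusted p = 0.00126) in the average, as log2 fold changes. The water call was lost in 6 of the 16 fits that left out 1 mouse: without home cage water mice 11 (adjusted p = 0.179, edgeR) and 20 (0.250), learning water mice 33 (0.209), 36 (0.242) and 38 (0.121), or learning caffeine mouse 30 (0.106).

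Klf9 (ENSMUSG00000033863, chromosome 19 from 23141226 to 23168134) encodes a zinc finger transcription factor that responds to glucocorticoids and thyroid hormone and is known in hippocampal neurons. Its counts were 154, 164, 163 and 140.3 CPM in home cage water mice and 151, 173, 194 and 184 CPM in learning water mice, 2 groups that overlap at learning mouse 24. With caffeine they were 140.2, 159, 158 and 104 CPM in the home cage and 174, 159.5, 171 and 189 CPM after learning, which do not overlap, although mouse 17 alone lay far below the other home cage mice. The log2 fold change was 0.18 (SE 0.11, adjusted p = 0.535) with water and 0.31 (SE 0.11, adjusted p = 0.138) with caffeine, neither past the threshold, and Klf9 was called higher in the average at 0.24 (SE 0.08, adjusted p = 0.0584). That call was lost without home cage water mouse 20 (adjusted p = 0.109, edgeR), learning water mouse 36 (0.106) or learning caffeine mouse 40 (0.112).

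Cdkn1a (ENSMUSG00000023067, chromosome 17 from 29090976 to 29100727) encodes the cell cycle inhibitor p21, which glucocorticoids and many stress signals induce. It had 8.42, 6.66, 7.13 and 8.87 CPM in home cage water mice and 9.84, 8.31, 7.39 and 6.38 CPM in learning water mice, with nearly the same mean (7.77 ± 1.04 and 7.98 ± 1.47 CPM, SD, n = 4 each). Under caffeine Cdkn1a had 6.59, 8.57, 5.65 and 7.39 CPM in the home cage and 13.4, 11.8, 9.75 and 8.76 CPM after learning, and the groups did not overlap. Cdkn1a rose by 0.64 (SE 0.16, adjusted p = 0.0403) on the log2 scale under caffeine, while the water value was 0.04 (SE 0.16, 95% interval -0.29 to 0.38). In the average of both treatments it was called at 0.34 (SE 0.11, adjusted p = 0.0677), and that call was lost without learning water mouse 33 (adjusted p = 0.107, edgeR).

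Plin4 (ENSMUSG00000002831, chromosome 17 from 56100591 to 56109803) encodes a coat protein of lipid droplets and was the least abundant member. It had 5.99, 1.94, 0.758 and 1.18 CPM in home cage water mice, where mouse 6 exceeded every other mouse of the study, and 5.36, 4.80, 3.89 and 3.06 CPM in learning water mice. Under caffeine the counts were 1.16, 2.67, 1.11 and 1.56 CPM in the home cage and 4.50, 3.92, 3.21 and 4.45 CPM after learning, with no overlap. The log2 fold change was 0.84 (SE 0.42, adjusted p = 0.454) with water and 1.35 (SE 0.44, adjusted p = 0.111) with caffeine, neither called, and the average over both was called at 1.10 (SE 0.30, adjusted p = 0.0358), a 2.14-fold difference. The caffeine value passed the threshold without home cage water mouse 6 (adjusted p = 0.0124, edgeR), 11 (0.0726) or 20 (0.0974), without home cage caffeine mouse 9 (0.0856) and without learning water mouse 24 (0.0950). Plin4 shares 17 exonic bases with Hdgfl2 on the opposite strand, a gene with 55557 counts over all mice against 1807 for Plin4.

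**Figure D3:**
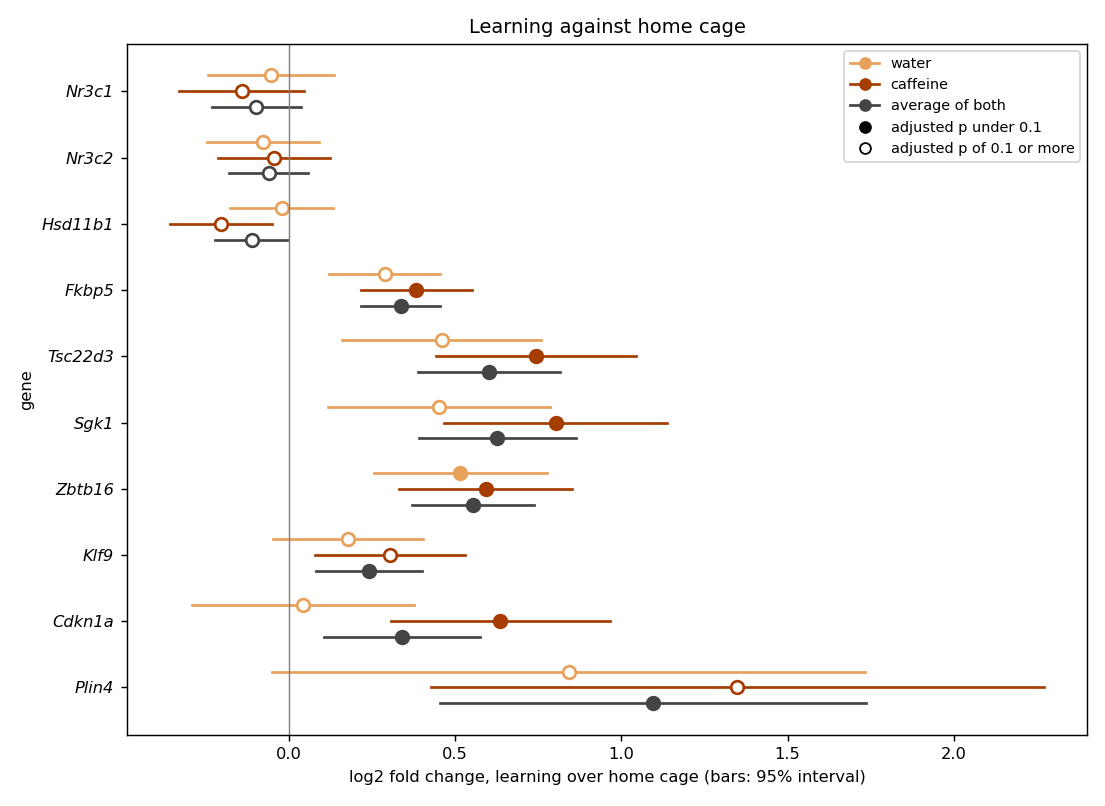
Log2 fold change of learning over home cage for each gene (points) with its 95% interval (bars), with water, with caffeine and as the average of both. Filled points have an adjusted p under 0.1: Zbtb16 with water, 5 genes with caffeine and 7 in the average, all to the right of 0.

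Home cage water mouse 6 stood apart in these genes. It had the highest count of the 8 home cage mice in 5 of the 7 target members (71.4%) and in 14 of 27 further glucocorticoid targets (51.9%), against 13.0% of all tested genes. It reached the lowest learning mouse in 6 of the 7 target members (85.7%), which is near its share of 78.8% over all tested genes. Each of the other 7 home cage mice did so in at most 2 of these members, and in 73.6 to 87.9% of all tested genes. For Nr3c1 and Hsd11b1 its counts lay inside the range of the other home cage water mice, and for Nr3c2 it was the lowest of its group. Without mouse 6, the comparison of learning with home cage under water called 5 members higher, where 0.909% of 18041 tested genes were called, 0.499% higher. The log2 fold changes were then 1.73 for Plin4 (adjusted p = 0.0106, edgeR), 0.69 for Sgk1 (adjusted p = 0.00862), 0.63 for Tsc22d3 (adjusted p = 0.0294), 0.60 for Zbtb16 (adjusted p = 0.0625) and 0.38 for Fkbp5 (adjusted p = 0.0319). Mouse 6 was singled out by its high counts in these same genes, so these larger values follow in part from that choice. They are not separate evidence of a response with water. Without home cage water mouse 11 or 20, learning water mouse 33, 36 or 38, or learning caffeine mouse 30, 0 members were called with water. In those fits the calls with water over all tested genes also fell, to between 37 and 109, against 173 with all mice. The total of 25235565 counts in mouse 6 was the smallest of its group, and its oligodendrocyte sum of 7546 CPM was the highest of that group (5263 to 6175 CPM in the other 3). Its choroid plexus sum of 580.3 CPM was the lowest of the group, in which mouse 20 reached 3117 CPM. The part of these differences in its high target counts was not tested.

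Caffeine by itself was not accompanied by a called change in any of the 10 genes. Of the 10 genes, 0 were called with caffeine against water in the home cage, after learning, or in the average of both conditions, and 0 in the difference between the learning responses, where 0% of the 17830 tested genes were called in each. At an unadjusted p under 0.05 the edgeR counts among the 10 genes were 0 in the home cage, 1 after learning, 1 in the difference and 0 in the average, and DESeq2 called 0 of the 10 in all 4. The intervals bound what these groups of 4 could have missed. For Fkbp5 the 95% interval of the log2 fold change of caffeine over water was -0.23 to 0.11 in the home cage and -0.13 to 0.20 after learning. For Nr3c1 it was -0.21 to 0.17 and -0.30 to 0.08, and for Nr3c2 -0.23 to 0.10 and -0.20 to 0.14. The widest were those of Plin4, -1.58 to 0.36 in the home cage and -0.94 to 0.74 after learning. Without home cage water mouse 6 the home cage value turned from -0.61 to 0.27 for Plin4, from -0.06 to 0.01 for Fkbp5 and from -0.13 to 0.03 for Tsc22d3, and none of these was called (adjusted p from 0.909 to 0.984, edgeR). Sgk1 had a log2 fold change of -0.31 (SE 0.16, unadjusted p = 0.0698 in edgeR) in the home cage, where its water mean of 82.4 ± 25.0 CPM (SD, n = 4) includes mouse 6 and is 70.2 ± 5.87 CPM (SD, n = 3) without it, against 66.5 ± 6.68 CPM (SD, n = 4) with caffeine. The choroid plexus markers also lay lower with caffeine than with water in the home cage (median log2 fold change -1.40 over 8 markers, 0 called), and their part in these values was not tested.

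The gene with the smallest p in these comparisons was Cdkn1a. After learning it had 13.4, 11.8, 9.75 and 8.76 CPM with caffeine and 9.84, 8.31, 7.39 and 6.38 CPM with water, and the 2 groups overlap. Its log2 fold change of caffeine over water was 0.44 after learning (SE 0.15, unadjusted p = 0.01, adjusted p = 0.999 in edgeR) and -0.15 in the home cage (SE 0.16). The difference between its learning responses, caffeine minus water, was 0.59 (SE 0.22, unadjusted p = 0.016) and did not pass the adjustment over all genes. For Sgk1 that difference was 0.35 (95% interval -0.12 to 0.82), for Tsc22d3 0.28 (-0.14 to 0.71), for Fkbp5 0.10 (-0.14 to 0.33) and for Zbtb16 0.08 (-0.29 to 0.44). These differences rested in part on home cage water mouse 6. Without it they were 0.12 for Sgk1, 0.13 for Tsc22d3, 0.02 for Fkbp5, 0.01 for Zbtb16 and 0.56 for Cdkn1a, that of Plin4 turned from 0.51 to -0.37, and the median over the 10 genes was 0.05 in place of 0.11. Other mice weighed on the difference of Zbtb16 too. It was -0.03 without home cage caffeine mouse 17 and -0.01 without learning water mouse 24. The numbers of members called after learning, 5 with caffeine and 1 with water, were 6 and 5 without home cage water mouse 6. Over all tested genes the numbers called were 942 with caffeine and 173 with water, and 1103 and 164 without that mouse. Mouse 6 was singled out by its high counts in these same genes, so the closer member numbers follow in part from that choice. A larger response under caffeine was not shown for any of the 10 genes.

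**Figure D4:**
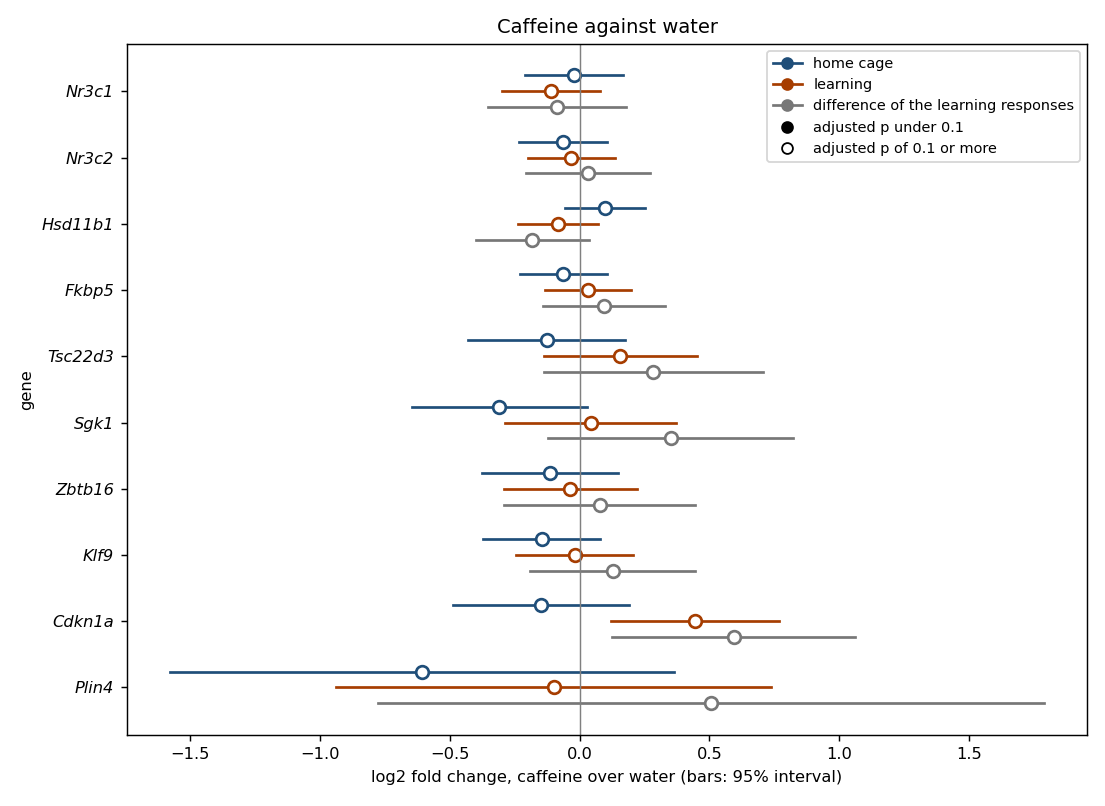
Log2 fold change of caffeine over water for each gene (points) with its 95% interval (bars), in the home cage, after learning, and as the difference between the learning responses (caffeine minus water). No point is filled, since no adjusted p is under 0.1, and all intervals but 2 of Cdkn1a include 0.

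A wider list of 28 glucocorticoid target genes was read beside the 10, of which 27 passed the count filter. After learning, 3 of the 27 were called higher and 0 lower with water, 10 higher and 0 lower with caffeine, and 14 higher and 2 lower in the average of both treatments. Of all tested genes 0.639% were called higher and 0.331% lower with water, and 3.16% and 2.13% with caffeine. In the average these shares were 7.81% and 6.71%. The median log2 fold change of the 27 was 0.11 with water, 0.26 with caffeine and 0.23 in the average, against -0.01 for all tested genes in each. Without home cage water mouse 6, the water comparison called 6 of the 27 higher, and 0.499% of all tested genes. With caffeine against water, 0 of the 27 were called in edgeR in the home cage or after learning, with 0 and 1 of them at an unadjusted p under 0.05. In the difference between the learning responses, caffeine minus water, 0 of the 27 were called in edgeR. At an unadjusted p under 0.05 there was 1. The median of this difference was 0.15, with 21 of the 27 above 0, and it was 0.05 without home cage water mouse 6. A larger response under caffeine was not shown for any of the 27, including those given below with caffeine values only.

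Among these targets Per1, a clock gene that glucocorticoids and neuronal activity also induce, had 58.0 ± 5.91 CPM in home cage water and 87.3 ± 11.7 CPM in learning water mice (SD, n = 4 each). Per1 rose by 0.59 (SE 0.09, adjusted p = 0.00619) with water and by 0.58 (SE 0.09, adjusted p = 0.00393) with caffeine on the log2 scale. Errfi1, a feedback inhibitor of the EGF receptor, rose by 0.50 (SE 0.09, adjusted p = 0.0249) and 0.59 (SE 0.09, adjusted p = 0.00369), and Tiparp, a mono-ADP-ribosyltransferase, by 0.49 (SE 0.08, adjusted p = 0.0116) and 0.43 (SE 0.08, adjusted p = 0.0124). These 3 genes were called in each of the 16 fits that left out 1 mouse, in both comparisons. Hif3a, a hypoxia-inducible factor subunit, rose by 0.95 (SE 0.19, adjusted p = 0.0144) under caffeine, from a mean of 3.21 ± 0.873 to one of 6.26 ± 0.802 CPM (SD, n = 4 each). Klf15, a metabolic Krüppel-like factor, rose by 0.60 (SE 0.12, adjusted p = 0.0139) under caffeine, Sult1a1, a sulfotransferase, by 0.69 (SE 0.17, adjusted p = 0.041), and Bcl6, a transcriptional repressor, by 0.49 (SE 0.11, adjusted p = 0.0343). Map3k6, a stress-activated kinase, was called under caffeine at 0.71 (SE 0.22, adjusted p = 0.0933), but in only 4 of the 16 fits that left out 1 mouse, and not without mouse 2, 9, 14, 17, 20, 22, 27, 30, 33, 36, 38 or 40 (adjusted p from 0.101 to 0.173, edgeR). The call of Bcl6 was lost without mouse 17 (adjusted p = 0.102, edgeR). In the average Dusp1, a phosphatase of MAP kinases, was called higher at 0.33 (SE 0.11, adjusted p = 0.0632), a call lost without mouse 30, 36 or 40 (adjusted p from 0.104 to 0.119, edgeR). Of the exon length of Tiparp 5.12% and of that of Sult1a1 4.05% overlaps a gene on the opposite strand. Against the direction of the list, Cdkn1c, the cell cycle inhibitor p57, fell in the average by a log2 fold change of -0.57 (SE 0.15, adjusted p = 0.0337).

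**Figure D5:**
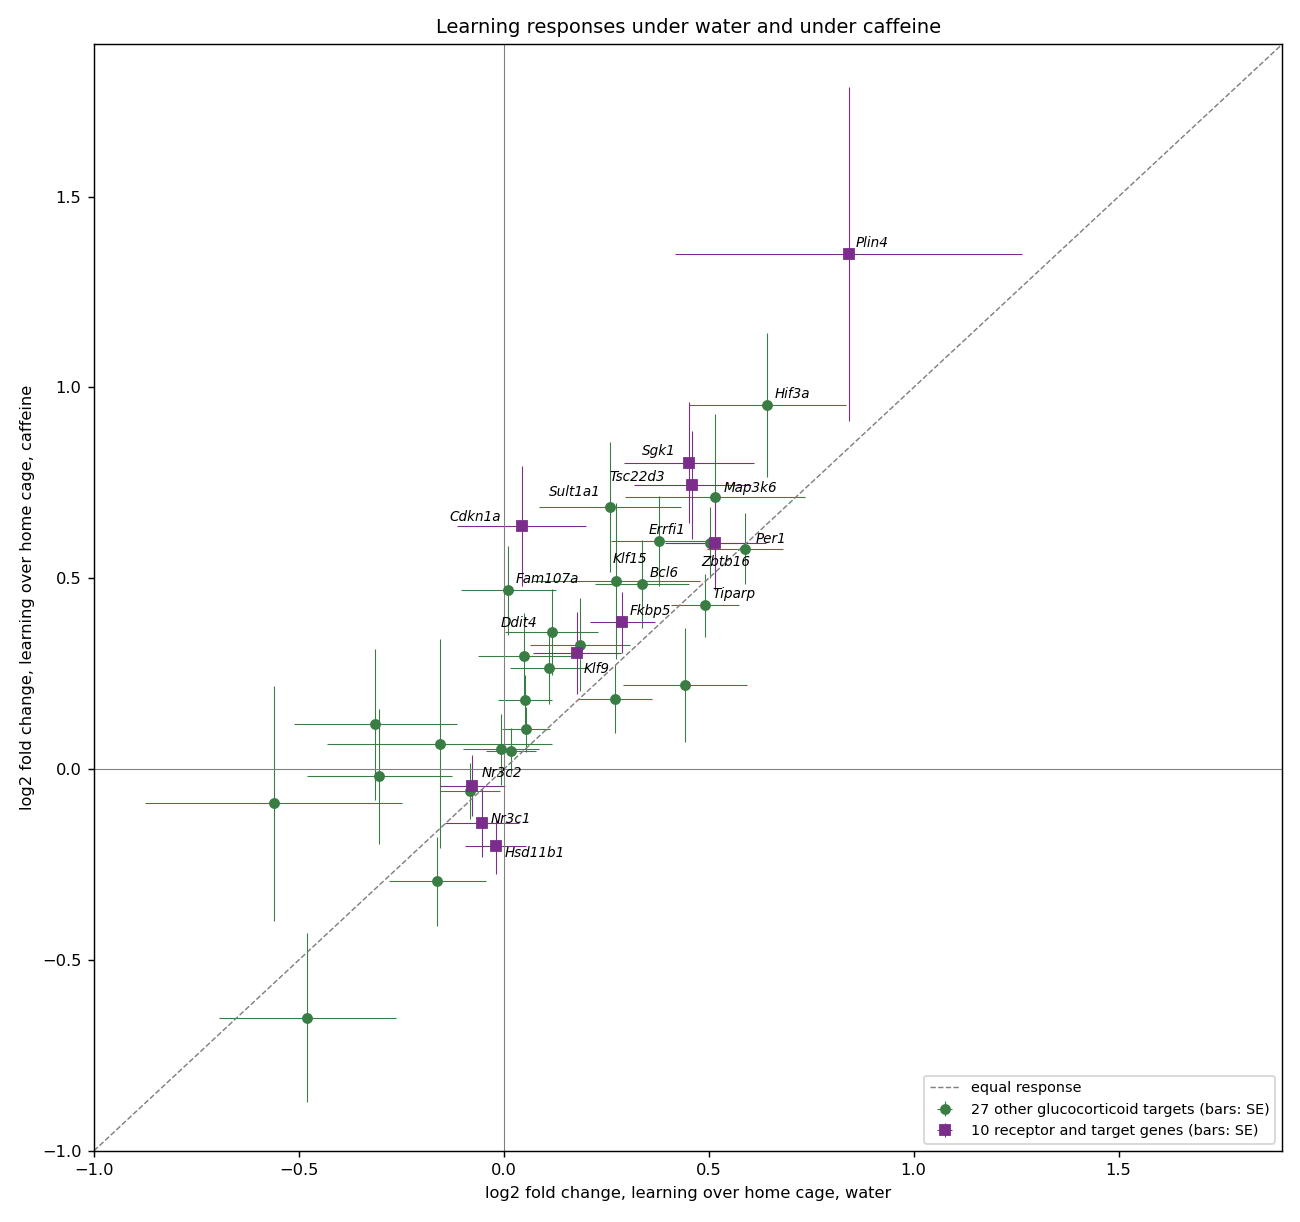
Log2 fold change of learning over home cage with water (horizontal) and with caffeine (vertical) for the 10 genes (squares, all named) and 27 further glucocorticoid targets (circles, named where called with water or with caffeine), with SE as bars and a dashed line of equal response. Most called genes lie above 0 on both axes, and the receptors and Hsd11b1 lie near 0.

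The chaperones and cofactors of the receptors were 13 genes, all tested. Of these 1 was called higher with water, where 0.97% of all tested genes were called, 1 with caffeine (5.28% of all) and 2 in the average of both treatments (14.5% of all), with 0 lower. Their median log2 fold changes were 0.07, 0.05 and 0.07, against -0.01 for all tested genes in each. The gene called in all 3 comparisons was Dnajb1, an HSP40 cochaperone that is also a heat shock gene, at 0.37 (SE 0.08, adjusted p = 0.0641) with water, 0.33 (SE 0.08, adjusted p = 0.0409) with caffeine and 0.35 (SE 0.06, adjusted p = 0.00191) in the average. With water its counts were 43.2 ± 2.98 CPM at rest and 55.8 ± 4.46 CPM after learning, and with caffeine 42.8 ± 2.25 and 53.9 ± 6.81 CPM (SD, n = 4 each). The call held in 12 of the 16 fits that left out 1 mouse with water, and in 13 with caffeine. With water it was lost without mouse 11, 20, 33 or 36 (adjusted p from 0.169 to 0.193, edgeR), and with caffeine without mouse 17, 30 or 40 (adjusted p from 0.101 to 0.123, edgeR). Fkbp4, the cochaperone that competes with Fkbp5 at the receptor, had 112 ± 5.57 CPM in home cage water and 120.4 ± 2.94 CPM in learning water mice and was not called.

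Of 11 genes of steroid access and of corticotropin-releasing hormone signalling, 9 were tested. In edgeR 0 of the 9 were called with water or with caffeine (2 in each at an unadjusted p under 0.05), where 0.97% and 5.28% of all tested genes were called. Hsd11b2, which inactivates corticosterone, had group means of at most 0.02 CPM and did not pass the filter. In the average 2 of the 9 were lower, where 6.71% of all tested genes were called lower: the receptor Crhr2 at -0.49 (SE 0.15, adjusted p = 0.0543) and the transporter Abcb1b at -0.27 (SE 0.09, adjusted p = 0.0736). Crhr2 had 2.52 ± 0.576 CPM at rest and 1.82 ± 0.396 CPM after learning with water, and 2.18 ± 0.644 and 1.54 ± 0.125 CPM with caffeine (SD, n = 4 each). Over the 16 fits that left out 1 mouse, Crhr2 was called in 13 and Abcb1b in 5. Crhr2 was not called without mouse 17, 20 or 33 (adjusted p from 0.106 to 0.125, edgeR), nor Abcb1b without mouse 2, 8, 11, 14, 20, 22, 27, 30, 33, 36 or 40 (adjusted p from 0.10023 to 0.136, edgeR).

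Some markers of other cell types were called after learning too. Of all tested genes 0.331% were called lower with water, 2.13% with caffeine and 6.71% in the average. Of 8 choroid plexus markers, all counted in every mouse, 3 were called lower with water and 7 lower in the average, and their summed level was 580.3 to 3117 CPM in home cage water, 448 to 919 CPM in home cage caffeine, 385 to 871 CPM in learning water and 289 to 455 CPM in learning caffeine mice. Their median log2 fold change was -1.16 for learning over home cage with water and -0.61 with caffeine. For caffeine over water in the home cage it was -1.40, with 0 of the 8 called in edgeR and 8 at an unadjusted p under 0.05. Of 6 microglia markers 3 were called lower with caffeine and 3 in the average, with summed levels of 277 to 317, 300.2 to 323, 278 to 307 and 263 to 309.7 CPM in the same order of groups. In the average 1 of 6 astrocyte markers, 1 of 6 endothelial markers and 1 of 4 CA1 markers were lower, and 1 of 6 CA2 and CA3 markers was higher. In that comparison 6.71% of all tested genes were called lower and 7.81% higher, so a single call in so short a list does not show that a cell type differed. The part of these cell types in the values of the 10 genes was not tested.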

How the data were processed

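RNA-Seq was analysed in the dorsal hippocampus of 16 mice, 4 per group. The authors prepared stranded poly(A) libraries, sequenced single-end reads of 50 bases, aligned them with STAR and Bowtie 2 to the mouse genome mm10, retained reads with a single alignment and assigned them to Ensembl release 90 genes with HTSeq-count 0.6.1p1 (union mode). The deposited values are raw read counts without normalization, with 1 library per mouse and no molecular identifiers. Whether the counting used the strand is not given in the sources used here.

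From these counts, R 4.3.3 and edgeR 4.0.16 were used with TMM normalization, filterByExpr with the 4 groups (17830 of 35328 genes), 1 model with a mean per group over 16 libraries, the quasi-likelihood test and Benjamini-Hochberg adjustment over all tested genes, with calls at an adjusted p under 0.1. SE is the log2 fold change divided by the square root of F, and intervals are 95% intervals from the same fit. Library totals were 23078094 to 49949281 counts, giving a median SE of 0.10 on the log2 scale in each comparison of 2 groups. Positions and exon lengths come from GENCODE M21 on the same build, which holds 35247 of the table's genes, and promoter windows from RefSeq. The test was tested on simulated data.

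The 10 genes and the other gene lists were chosen with earlier results of these data known. Other genes were named where called in any comparison, up to 10 per list by absolute log2 fold change in the learning average. A further gene of this kind is not reported here. The alternatives were size factors from DESeq2 1.42.0 within edgeR, the Wald test of DESeq2, a minimum total of 1 count, a minimum of 10 counts per library, a threshold of 0.05, only the 8 libraries compared, robust empirical Bayes, CPM on plain library totals, and each library left out in turn. The cause of any difference was not tested.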

Additional observations from a re-analysis of the deposited data

Results flagged for a closer look

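Of 40 sets of 4 mice (10 genes in 4 groups), 1 held a mouse far from the other 3 by Dixon's test, which by chance picks out about 1 in 20 such sets. This was Fkbp5 in home cage water mouse 6, at 77.1 CPM, where the other 3 mice of the group lay between 62.2 and 63.9 CPM. The group mean of Fkbp5 was 66.6 ± 7.04 CPM (SD, n = 4) with this mouse and 63.1 ± 0.88 CPM (SD, n = 3) without it, and the value of mouse 6 fell between the lowest and highest learning water mice (73.4 and 89.1 CPM). The same mouse was the highest of its group for Sgk1, Tsc22d3, Zbtb16 and Plin4.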

How the results depend on the processing

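The count of members called after learning with water was the result that moved most with the processing: 1 as reported, 0 at an adjusted p under 0.05, 0 with only the 8 libraries compared, 3 with DESeq2's Wald test (Fkbp5, Tsc22d3 and Zbtb16) and 4 with a minimum total of 1 count (Sgk1, Fkbp5, Tsc22d3 and Zbtb16). Over the 16 fits that each left out 1 mouse it ranged from 0 to 5, with 5 without home cage water mouse 6. Under caffeine the count stayed between 5 and 7 and in the average between 5 and 7 over all alternatives, and the 5 genes called under caffeine were called in each of them. In the 4 comparisons that involve caffeine against water the count was 0 under every alternative run. None of the 22 member log2 fold changes with an unadjusted p under 0.05 reversed under an alternative, while 21 of the other 48 changed sign under at least 1, the largest being that of Plin4 for caffeine against water in the home cage (-0.61, and 0.27 without home cage water mouse 6). Over these 22, 132 values under other settings kept their side of the threshold, 9 passed it and 4 fell short of it. Over all tested genes, learning with water called 173 genes as reported, 427 with DESeq2, 290 with the minimum total of 1 count, 70 at an adjusted p under 0.05 and 85 with only the 8 libraries compared, and 37 to 312 with 1 mouse left out. For learning with caffeine these counts were 942, 1561, 793, 449 and 617, and 382 to 1231. In the average of both treatments an adjusted p under 0.05 left 1384 of 2590 calls. Caffeine against water called 0 genes in edgeR as reported, and DESeq2 called 19 in the home cage, 6 after learning, 6 in the difference and 16 in the average, while the minimum total of 1 count called 34, 8, 9 and 36. The cause was not tested. Plin4 and Cdkn1a had the lowest counts of the members, and the part of sequencing depth in their spread was not tested. No paired analysis was possible because the animal numbers differ between groups.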

Other observations

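Among mice of the same group, the target genes did not vary as 1 block. After the group means were subtracted from log2 CPM over the 16 mice, Pearson's r of Zbtb16 with Klf9 was 0.85 and with Fkbp5 0.72, whereas its r with Tsc22d3 was -0.09 and with Sgk1 0.14. Tsc22d3 had an r of 0.75 with Sgk1 and of 0.70 with Cdkn1a, and Cdkn1a had an r of -0.80 with Nr3c1. Without home cage water mouse 6 the r of Sgk1 with Tsc22d3 was 0.56, that of Sgk1 with Plin4 was 0.29 in place of 0.70, and that of Zbtb16 with Klf9 was 0.90. These values are not particular to the target genes: of 13378 genes compared (average log2 CPM of at least 1), Klf9 ranked 23 in likeness to Zbtb16 and Sgk1 ranked 236 in likeness to Tsc22d3.

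The genes most like each member by this measure were Dnajc24, Zfp1 and Chml for Fkbp5 (r of 0.91, 0.84 and 0.84), Plekhf1, Dym and Sept7 for Sgk1 (0.89, 0.85 and 0.85), Med9, Med28 and Crybb1 for Tsc22d3 (0.93, 0.93 and 0.91), Nmt1, Ccny and Dusp4 for Zbtb16 (0.94, 0.93 and 0.92), Hadh, Sspo and Rnf181 for Cdkn1a (0.94, 0.91 and 0.91), Xpo7, Trappc8 and Taok1 for Klf9 (0.98, 0.96 and 0.96) and Mrtfa, Cdkn2aipnl and Aven for Plin4 (0.92, 0.90 and 0.87). None of these 21 genes is a member or on the wider target list. Several ranks rest on home cage water mouse 6: without it Plekhf1 ranked 170 and Dym 269 for Sgk1 (r of 0.74 and 0.71), Chml 75 and Zfp1 26 for Fkbp5, Sept7 23 for Sgk1 and Cdkn2aipnl 18 for Plin4, and the other 15 genes ranked between 1 and 15. The 21 genes are the highest of many values, the 16 mice share depth, dissection and tissue make-up along with each gene's own variation, and no test was made.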
